A study of Homo sapiens with 30 samples.

Results

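The response of 2 Ewing sarcoma cell lines to a BET inhibitor was set side by side, and the quantity described is the difference between them: the log2 change in TC32 minus the log2 change in CHLA10. The libraries were taken by their sample labels, and 12 of the 30 libraries in the series entered the comparison, 3 per group. The groups were TC32 with BMS-986158, TC32 with vehicle, CHLA10 with BMS-986158 and CHLA10 with vehicle. BMS-986158 was given at 5 nM for 72 hours (labelled 3 days), and vehicle was DMSO. Both lines are established Ewing sarcoma lines labelled EWS::FLI1, so the fusion was present in treated and vehicle cells alike. TC32 grew in RPMI1640 with 10% serum and CHLA10 in IMDM with 20% serum and an insulin, transferrin and selenium supplement, so line and medium cannot be told apart. The title of the study names a need for focal adhesion kinase when BET proteins are inhibited. Nothing in the labels says that the 3 libraries of a group came from separate cultures. A p-value here therefore reflects only how libraries of the same group vary among themselves, possibly for technical reasons. That spread was estimated over all 30 libraries of the series, in 10 groups, and not from the 12 alone.

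BET proteins, BRD2 and BRD3 among them, bind acetylated histones at promoters and enhancers and help release RNA polymerase II through P-TEFb, the kinase made of CDK9 and a T-type cyclin. Inhibitors such as BMS-986158 displace them from chromatin, and genes under strong enhancers usually lose most transcript. EWS::FLI1 is a fusion transcription factor that makes its own enhancers in Ewing sarcoma and represses a mesenchymal programme of matrix and adhesion genes. A difference between lines can arise because one line responds and the other does not, because both respond by unequal amounts, or because they respond in opposite directions.

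Total counts per library were 19520521 to 21812009 in treated TC32, 16083677 to 21252129 in vehicle TC32, 22175364 to 24857334 in treated CHLA10 and 16464672 to 19730902 in vehicle CHLA10. Of 33538 genes, 16713 had enough counts to be tested. The Ewing markers CD99, NR0B1, FLI1, STEAP1 and LINGO1 were present in both lines. NKX2-2, another marker, was at 72.8 to 97.4 CPM (counts of a gene scaled to library size) over the 6 TC32 libraries but at 0.0397 to 1.28 CPM over the 6 CHLA10 libraries. Of 15 markers of leukocytes, epithelium, endothelium, muscle and liver, the summed level was 7.81 to 9.49 CPM in treated TC32, 7.86 to 9.54 in vehicle TC32, 8.91 to 11.8 in treated CHLA10 and 13.9 to 14.5 in vehicle CHLA10, and 7, 4, 3 and 3 of them were at 0 in all libraries of the group. Of the 8 that passed the filter, PECAM1 was the 1 called for the difference. It had 0.949 to 1.6 CPM in vehicle TC32, 0 in treated TC32 and vehicle CHLA10, and at most 0.0397 in treated CHLA10. The call was lost without treated TC32 replicate 2 or 3, vehicle TC32 replicate 3, treated CHLA10 replicate 1 or any vehicle CHLA10 replicate. The part of such other cell types in the results was not tested.

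Before the results, 2 features of the libraries touch all of them. Treated TC32 replicate 1 and treated CHLA10 replicate 3 stood apart from the other 2 libraries of their groups. A chi-square per gene between libraries was 32.1 and 29.4 for the former, against 3.30 between the other 2. For the latter it was 19.7 and 15.9, against 5.27. Vehicle TC32 replicate 2 stood apart to a lesser degree, at 12.9 and 10.5 against 5.83 between replicates 1 and 3. In TC32, the change also followed transcript length. Genes were split into 5 equal bins by transcript length (a gene's longest transcript in GENCODE release 29). In the shortest bin (168 to 1880 bases) the median log2 change was -0.34 in TC32 and -0.06 in CHLA10. In the longest bin (5713 bases or more) it was 0.33 in TC32 and 0.03 in CHLA10. Calls for the difference followed: 32 genes higher and 376 lower in the shortest bin, against 635 higher and 109 lower in the longest. The gap between the lines (TC32 minus CHLA10) followed transcript length too, and more under vehicle. Its median log2 value under vehicle was 0.39 in the shortest bin and -0.45 in the longest. Under BMS-986158 it was 0.08 and -0.18, so the lines lay nearer to each other there. Among treated TC32 libraries, replicates 2 and 3 had medians of -0.31 and -0.29 in the shortest bin and of 0.35 and 0.35 in the longest, relative to vehicle, and replicate 1 had -0.13 and 0.15. The trend was not uniform over vehicle TC32 libraries either, at -0.06 to 0.03 in the shortest bin and -0.06 to 0.09 in the longest. Medians also fell with GC content, at 0.13 for the difference in the bin of lowest GC and -0.14 in that of highest. Whether the length trend comes from the treatment or from the libraries was not tested. A second fit, added after seeing the data, removed each library's trend with transcript length and GC content, and its values are given below as the trend-corrected ones.

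**Figure D1:**
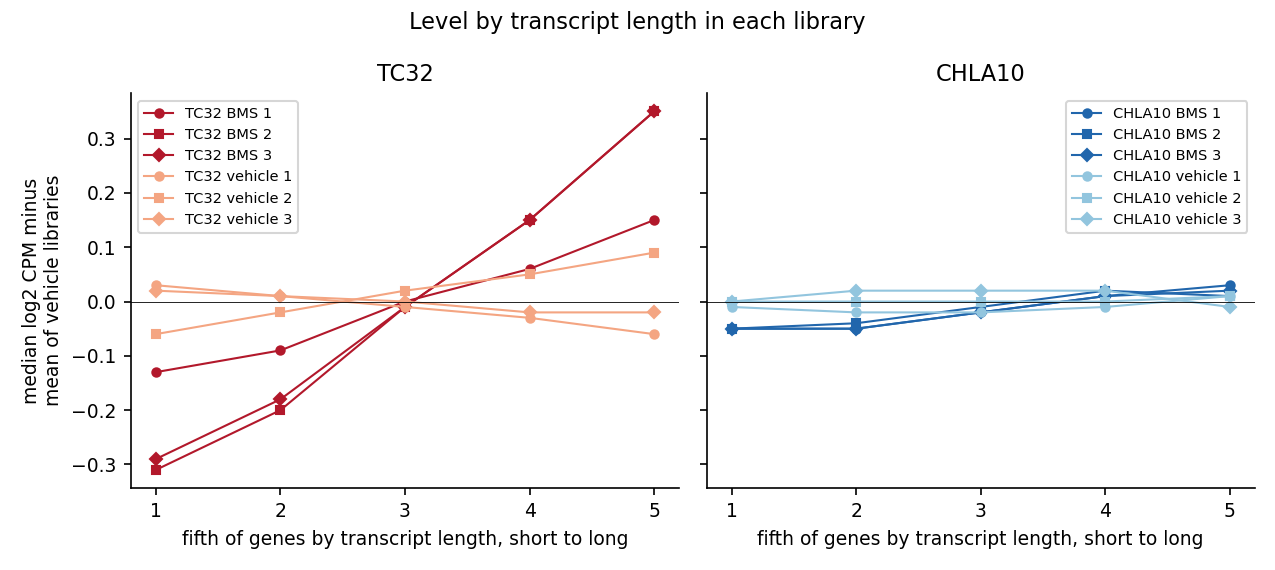
Median log2 CPM per library, minus the mean of the vehicle libraries of the same line (vertical axis), with TC32 left and CHLA10 right. The gap between the lines under vehicle is therefore not visible. Each curve is 1 library, over 5 equal bins of tested genes ordered by transcript length from short to long (horizontal axis). Treated TC32 replicates 2 and 3 run from -0.31 and -0.29 to 0.35, replicate 1 from -0.13 to 0.15, and the CHLA10 libraries stay between -0.05 and 0.03.

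More genes were called in TC32 than in CHLA10, and the response differed between the lines for 2307 genes. In TC32, 3728 genes rose (22.3% of those tested) and 3817 fell (22.8%). In CHLA10, 2345 rose (14.0%) and 2630 fell (15.7%). In the trend-corrected fit 3144 rose and 3610 fell in TC32, and 2492 rose and 2823 fell in CHLA10. Of its TC32 calls, 5505 were shared with the first fit, 5488 of them in the same direction. Rises and falls of the gene lists below are from the first fit unless stated. The difference between the responses was called (adjusted p under 0.05, edgeR quasi-likelihood test) for 2307 genes (13.8%). It was higher in TC32 for 1226 (7.34%), 296 of them by at least 2-fold, and lower in TC32 for 1081 (6.47%), 484 of them by at least 2-fold. Below, a gene called higher or lower in TC32 has a higher or lower response there, whatever its level. The trend-corrected fit called 812 higher and 895 lower, of which 684 and 699 were shared with the first fit. Without both treated libraries that stood apart, 3007 differences were called. The count was 1292 without treated TC32 replicate 2, 1316 without treated TC32 replicate 3 and 1381 without vehicle TC32 replicate 1.

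Genes higher in TC32 mostly rose there and were not called in CHLA10 (741 of 1226). Another 209 fell in CHLA10 and were not called in TC32, 136 rose in both lines, 26 fell in both and 84 rose in TC32 and fell in CHLA10. Among the genes lower in TC32, 588 of 1081 fell there and were not called in CHLA10. A further 228 rose in CHLA10 and were not called in TC32, 120 fell in both lines, 46 rose in both and 62 fell in TC32 and rose in CHLA10. Being called in 1 line and not in the other did not by itself mean a difference: of 4352 genes called in TC32 and not in CHLA10, 1329 (30.5%) were called for the difference, and of 1782 called in CHLA10 and not in TC32, 437 (24.5%) were. Of 3193 genes called in both lines, 95.4% had the same direction. Where both lines moved the same way by unequal amounts (328 genes), the change was larger in TC32 for 256 and in CHLA10 for 72. The median absolute log2 gap between the lines over all tested genes was 0.57 under BMS-986158 and 0.72 under vehicle, and 0.57 and 0.67 in the trend-corrected fit.

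**Figure D2:**
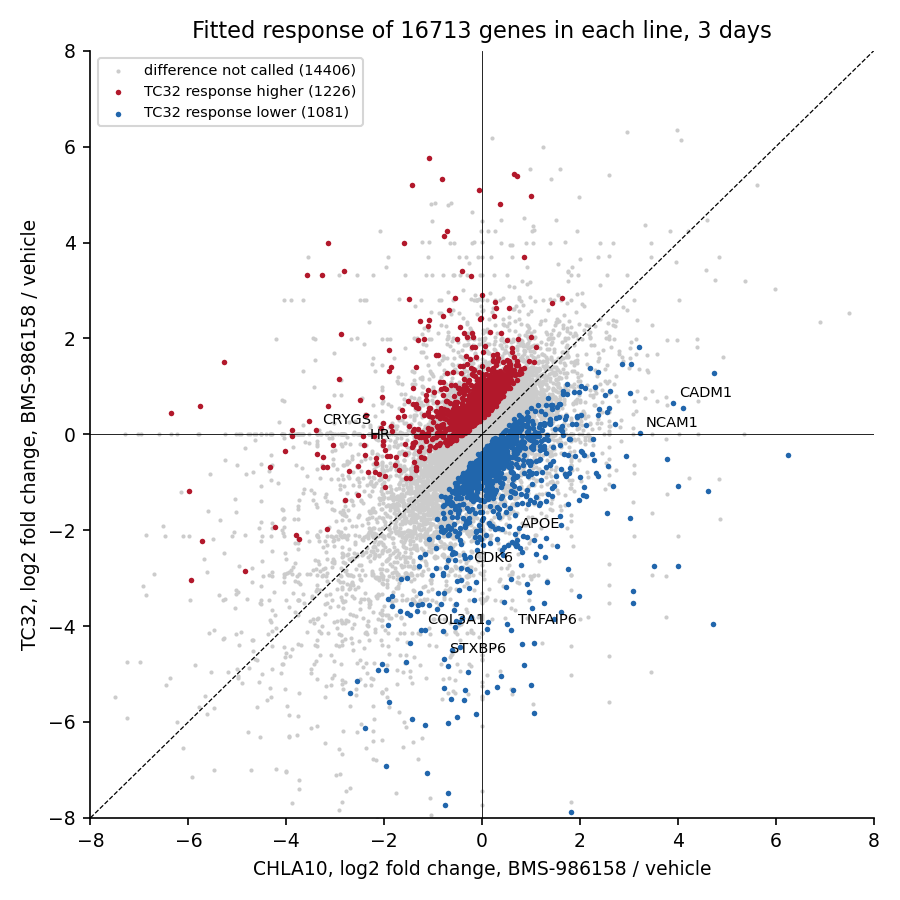
Fitted log2 fold change of each tested gene, BMS-986158 over vehicle, in TC32 (vertical axis) against CHLA10 (horizontal axis). The dashed line marks equal change, red points are the 1226 genes with a higher response in TC32, blue points the 1081 with a lower one, grey points were not called, and 12 genes lie outside the axes.

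Among the genes with the most negative differences, TNFAIP6, a secreted hyaluronan-binding protein, had 2.77, 4.42 and 3.09 CPM in treated TC32 libraries and 54.5, 56.6 and 64.05 CPM in vehicle TC32 libraries. In CHLA10 it had 17.2, 14.4 and 13.7 CPM under treatment and 10.02, 9.73 and 10.2 CPM under vehicle. TNFAIP6 fell in TC32 and rose in CHLA10 with no overlap in either line, and the log2 difference was -4.68 ± 0.30 (SE; adjusted p = 7.37e-11). STXBP6, a SNARE-binding protein, had 0.247, 0.196 and 0.373 CPM in treated TC32 libraries and 7.92, 7.30 and 5.99 CPM in vehicle TC32 libraries. It had 16.7, 15.2 and 14.2 CPM in treated CHLA10 libraries and 29.2, 23.8 and 25.9 CPM in vehicle CHLA10 libraries. Both lines were lower under treatment without overlap, TC32 by far the more, with a difference of -3.91 ± 0.40 (SE; adjusted p = 7.86e-07). CDK6, a D-cyclin partner that drives entry into S phase, had 1.48, 1.72 and 2.93 CPM in treated TC32 libraries and 15.01, 14.2 and 13.4 CPM in vehicle TC32 libraries. In CHLA10 the levels were 13.2, 13.2 and 14.9 CPM with BMS-986158 and 19.5, 16.6 and 15 CPM with vehicle. Treated libraries were below vehicle ones in both lines, by far the more in TC32, and the difference was -2.49 ± 0.33 (SE; adjusted p = 2.99e-05); the CHLA10 change of -0.31 was not called (adjusted p = 0.291). FABP3, a fatty acid carrier, had 7.56, 3.19 and 4.69 CPM in treated TC32 libraries and 78.2, 71.2 and 79.96 CPM in vehicle TC32 libraries. In CHLA10 it was low in all 6 libraries (0.755, 1.02 and 1.04 treated, 1.47, 1.14 and 1.47 vehicle), and the difference was -3.36 ± 0.56 (SE; adjusted p = 0.00038).

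Other named genes were also lower in TC32. FREM1, a basement membrane protein, fell in TC32 (log2 change -3.67) and was not called in CHLA10 (-0.58), with a difference of -3.08 ± 0.59 (SE; adjusted p = 0.0017). RSPO3, a secreted amplifier of WNT signalling, had 10.9, 12.7 and 11.8 CPM in treated TC32 libraries and 51.1, 52.3 and 51.6 CPM in vehicle TC32 libraries. In CHLA10 RSPO3 had 0.993, 1.38 and 0.520 CPM treated and 0.352, 0.938 and 0.305 CPM vehicle, overlapping; the difference was -2.96 ± 0.57 (SE; adjusted p = 0.00117). CITED4, a coactivator-binding protein, differed by -2.83 ± 0.44 (SE; adjusted p = 0.000165) and ASGR1, a hepatic lectin subunit, by -3.02 ± 0.45 (SE; adjusted p = 0.000114). CAPN6, a calpain-family protein without protease activity, fell in both lines, with log2 changes of -4.07 in TC32 and -1.17 in CHLA10. Its level in TC32 was low, at a mean of 0.27 CPM treated (16 counts) and 4.69 CPM vehicle (243 counts). In CHLA10 the means were 129.5 CPM treated and 290.7 CPM vehicle. PKP1, a desmosome protein, held 2 counts in all treated TC32 libraries and 56 in the vehicle ones, a ratio of 0.032 (95% interval 0.00378 to 0.121, counting error only). In CHLA10 PKP1 was at 187.9, 207.2 and 338.2 CPM under treatment and 707.9, 728 and 725.2 CPM under vehicle. Its fitted difference was -3.19 ± 0.77 (SE; adjusted p = 0.00658), and the call was lost with limma-voom and in the fit of the 12 libraries alone. TNC is a matricellular protein that was listed here among genes repressed by EWS::FLI1. It had 19.9, 31.4 and 39.4 CPM in treated TC32 libraries and 363.5, 386.8 and 386.1 CPM in vehicle TC32 libraries. TNC in CHLA10 had 100.1, 106.9 and 157.7 CPM under treatment and 230.6, 234.2 and 226 CPM under vehicle, and the difference was -2.73 ± 0.55 (SE; adjusted p = 0.00241).

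The next 3 genes rose in CHLA10. NCAM1, the neural cell adhesion molecule, had 1.48, 1.87 and 1.87 CPM in treated TC32 libraries and 0.837, 1.88 and 2.46 CPM in vehicle TC32 libraries, and those groups overlapped. It rose in CHLA10 to 64.9, 61.5 and 42.97 CPM with treatment, against 5.63, 6.42 and 6.10 CPM with vehicle. The log2 change was 0.03 in TC32 and 3.22 in CHLA10, a difference of -3.19 ± 0.49 (SE; adjusted p = 0.000239). CADM1, a synaptic adhesion molecule, had 85.5, 115 and 105.5 CPM in treated TC32 libraries and 61.05, 72.1 and 60.99 CPM in vehicle TC32 libraries. It had 12.99, 13.8 and 7.67 CPM in treated CHLA10 libraries and 0.528, 0.840 and 0.915 CPM in vehicle CHLA10 libraries, so the level in CHLA10 stayed below that of TC32. CADM1 rose in both lines, by 0.66 in TC32 and 3.89 in CHLA10, and the difference was -3.23 ± 0.43 (SE; adjusted p = 4.73e-05). KIF5C, a neuronal kinesin, had 27.4, 32.7 and 36.8 CPM in treated TC32 libraries and 23.4, 24.2 and 18.6 CPM in vehicle TC32 libraries. In CHLA10 it rose to 9.46, 8.96 and 6.33 CPM with treatment, against 0.704, 0.395 and 0.356 CPM with vehicle. The difference was -3.55 ± 0.72 (SE; adjusted p = 0.0025), and limma-voom did not call it. Treated CHLA10 replicate 3 had the lowest level of all 3 genes in its group.

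Of the 30 genes in the neuronal list, 5 were called lower in TC32 (NCAM1, KIF5C, MAP2, SCG2 and NSG1) and 0 higher, against 6.47% and 7.34% of all tested genes. The median difference was -0.63, against 0.00 over all tested genes. All 5 were also called in the trend-corrected fit. The list's median change was -0.02 in TC32 and 0.31 in CHLA10, with 6 rising and 7 falling in TC32 and 9 rising and 6 falling in CHLA10. Over all tested genes, 22.3% rose and 22.8% fell in TC32, and 14.0% rose and 15.7% fell in CHLA10. Counts of all lists below stand beside these shares, and no list was tested as a set. SCG2, a secretory granule protein, fell in both lines, with log2 changes of -3.77 in TC32 and -1.48 in CHLA10, so the 5 did not share 1 pattern. For 9 of the 30 a group held 0 counts, and with those genes at their bounds (floor of 3 counts over the group) the median difference was -0.56.

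Among the genes with the most positive differences, HR, a histone demethylase of the JmjC family, had 120.9, 105.4 and 116.9 CPM in treated TC32 libraries and 128.7, 142.3 and 132.4 CPM in vehicle TC32 libraries. In CHLA10 it fell to 8.78, 10.6 and 23.1 CPM under treatment, against 75.8, 75.2 and 75.7 CPM under vehicle. All treated CHLA10 libraries were below all vehicle ones, replicate 3 least so, and the difference was 2.19 ± 0.33 (SE; adjusted p = 0.000173). CRYGS, a crystallin, had 3.90, 2.21 and 2.08 CPM in treated TC32 libraries and 2.57, 3.996 and 0.999 CPM in vehicle TC32 libraries, overlapping. CHLA10 held 4.21, 3.16 and 4.51 CPM treated and 40.3, 41.5 and 43.5 CPM vehicle, and the difference was 3.48 ± 0.52 (SE; adjusted p = 0.000141). ARHGAP31, a GTPase-activating protein for CDC42 and RAC1, had 32.4, 46.5 and 44.9 CPM in treated TC32 libraries and 38.2, 46.9 and 41.8 CPM in vehicle TC32 libraries, also overlapping. CHLA10 levels were 5.09, 5.48 and 6.504 CPM with BMS-986158 and 25.4, 27.02 and 26.6 CPM with vehicle, and the difference was 2.17 ± 0.25 (SE; adjusted p = 3.68e-06). UNCX, a homeobox factor, differed by 3.97 ± 0.75 (SE; adjusted p = 0.0015) and ITPR3, an endoplasmic reticulum calcium channel, by 2.81 ± 0.56 (SE; adjusted p = 0.00248). BHLHE41, a circadian repressor, differed by 2.40 ± 0.47 (SE; adjusted p = 0.00146), and RBM20, a splicing regulator, by 2.15 ± 0.49 (SE; adjusted p = 0.00443). HR, CRYGS, ARHGAP31, UNCX, ITPR3, BHLHE41 and RBM20 fell in CHLA10 and were not called in TC32. NETO1, an auxiliary subunit of glutamate receptors, rose in TC32, to 175.1, 236.7 and 245.4 CPM in treated TC32, against 127.6, 145.3 and 127.2 CPM in vehicle TC32. CHLA10 showed 0.159, 0.134 and 0.130 CPM treated and 0.762, 0.741 and 0.966 CPM vehicle. Its difference of 3.21 ± 0.67 (SE; adjusted p = 0.00255) rests on 10 counts in treated and 47 counts in vehicle CHLA10. ETV5, an ETS factor, was not called in TC32 (log2 change 0.18) and fell in CHLA10 (-1.87), with a difference of 2.04 ± 0.55 (SE; adjusted p = 0.0164). ETV5 lost its call when treated TC32 replicate 2 or treated CHLA10 replicate 1 or 2 was left out.

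**Figure D3:**
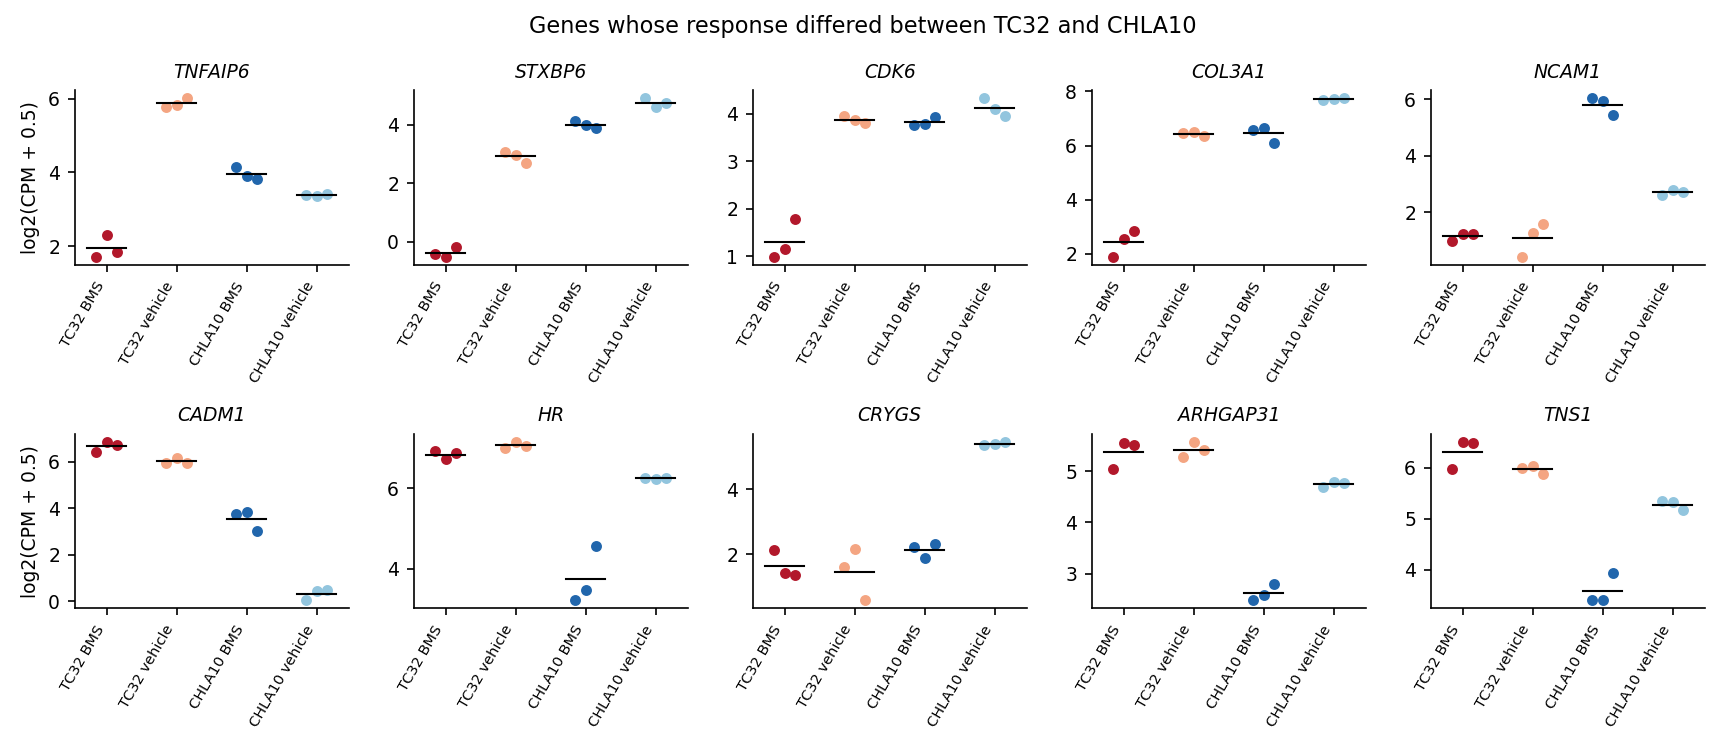
Level of 10 genes in each library as log2(CPM + 0.5), with treated TC32, vehicle TC32, treated CHLA10 and vehicle CHLA10 from left to right in each panel and a bar at the group mean. TNFAIP6, STXBP6, CDK6 and COL3A1 have their lowest values in treated TC32, NCAM1 and CADM1 rise in treated CHLA10, and HR, ARHGAP31 and TNS1 have their lowest values in treated CHLA10.

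For 146 genes the lines moved in opposite directions, each change being called. All 146 were called for the difference, an outcome that called changes of opposite sign make close to certain. In the trend-corrected fit 127 genes were called in opposite directions, and 71 were found in both fits. APOE, the lipid carrier apolipoprotein E, fell to 14.5, 9.23 and 10.6 CPM in treated TC32, against 51.9, 42.3 and 51.8 CPM in vehicle TC32. In CHLA10 it rose to 125, 130.6 and 86.98 CPM with treatment, against 67.8, 74.5 and 73.3 CPM with vehicle. Neither pair of groups overlapped, and the difference was -2.75 ± 0.31 (SE; adjusted p = 3.74e-06). TYW1B, a tRNA wybutosine synthesis paralogue that shares sequence with TYW1 so that its counts are uncertain, changed by -1.31 in TC32 and 1.10 in CHLA10. BARX2, a homeobox factor, changed by -0.96 in TC32 and 1.21 in CHLA10, GAS7, a cytoskeletal protein, by -0.80 and 1.78, and MCF2L, a guanine nucleotide exchange factor, by -1.03 and 1.02, with TC32 first each time. DNM3OS overlaps DNM3 on the other strand and, with the strand of counting not given in the sources used here, its counts are uncertain (difference -2.63).

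In the other direction, ST3GAL1, a sialyltransferase, had 19.8, 26.2 and 29.2 CPM in treated TC32 libraries and 14.8, 10.4 and 13.5 CPM in vehicle TC32 libraries. Its CHLA10 levels were 5.33, 5.70 and 8.28 CPM under treatment and 10.5, 11.2 and 11.3 CPM under vehicle, with no overlap in either line and a difference of 1.73 ± 0.35 (SE; adjusted p = 0.00196). NACC2, a transcriptional repressor with a BTB domain, differed by 1.87 ± 0.41 (SE; adjusted p = 0.00436). AHNAK, a giant scaffold protein, had 129.2, 208.5 and 226.2 CPM in treated TC32 libraries and 87.9, 112.9 and 103.6 CPM in vehicle TC32 libraries. AHNAK in CHLA10 was at 204.3, 194.8 and 204.4 CPM treated and 464.6, 439.9 and 285.4 CPM vehicle. Its difference was 1.87 ± 0.42 (SE; adjusted p = 0.00574) and was 1.32 in the trend-corrected fit. RAPH1, a regulator of actin at the leading edge, and PGM2L1, a sugar phosphomutase, differed by 1.89 and 1.57, and for both treated TC32 replicate 1 lay within the vehicle range.

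**Figure D4:**
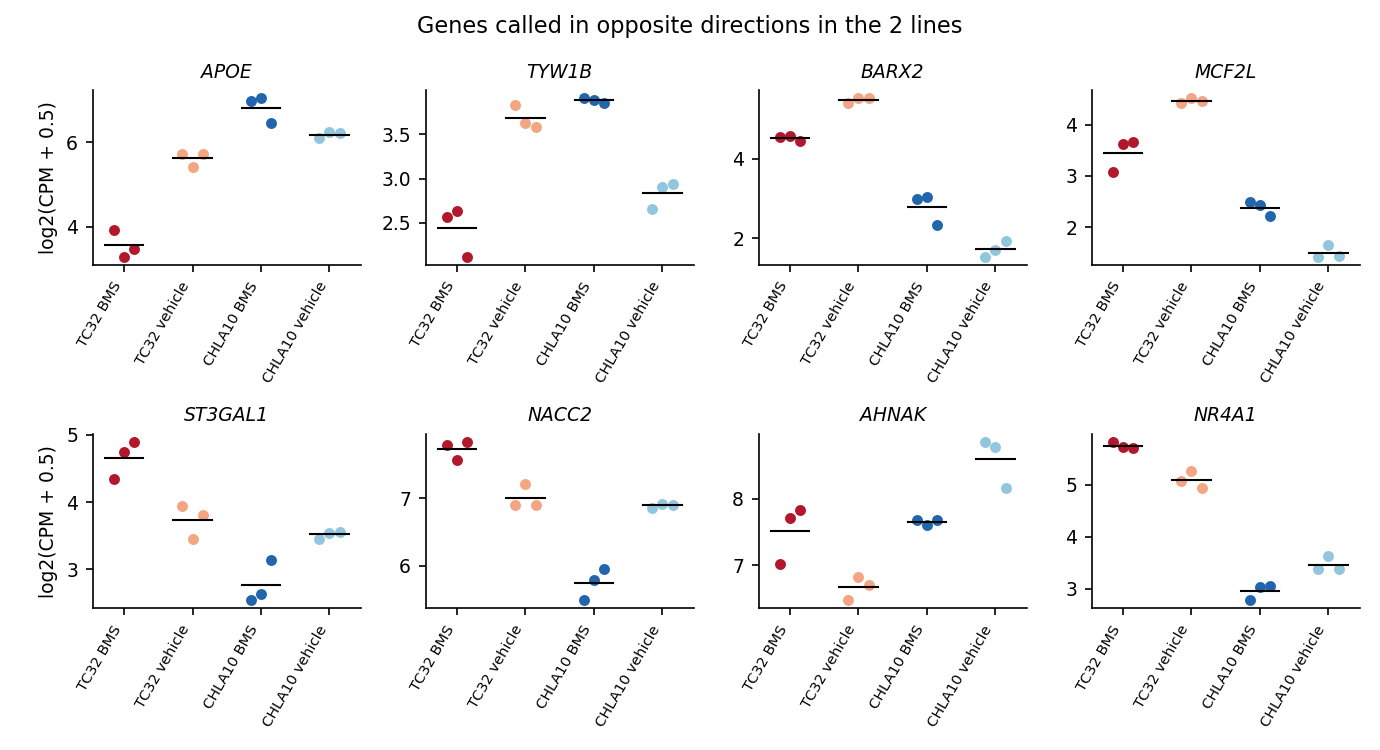
Level of 8 genes called in opposite directions, as log2(CPM + 0.5) per library, with treated TC32, vehicle TC32, treated CHLA10 and vehicle CHLA10 from left to right and a bar at the group mean. APOE, TYW1B, BARX2 and MCF2L are lower in treated than vehicle TC32 and higher in treated than vehicle CHLA10, and ST3GAL1, NACC2, AHNAK and NR4A1 show the reverse.

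Of 30 G1/S and replication genes, 25 fell and 0 rose in TC32 (median -0.76), and 21 fell and 0 rose in CHLA10 (median -0.40). For the difference, 9 were lower in TC32 and 1 higher, against 6.47% and 7.34% of all genes, with a median of -0.34. Of the 9, 5 were also called in the trend-corrected fit, where the median was -0.24. With any 1 of 9 libraries left out, 5 were called lower: treated TC32 replicate 2 or 3, vehicle TC32 replicate 1 or 3, treated CHLA10 replicate 2 or 3 or any vehicle CHLA10 replicate. POLA2, a subunit of DNA polymerase alpha, had 40.1, 32.8 and 33.9 CPM in treated TC32 libraries and 86.3, 71.6 and 79.2 CPM in vehicle TC32 libraries. The other line had 77.1, 78.01 and 76.5 CPM with BMS-986158 and 101.8, 103.3 and 107.5 CPM with vehicle. Treated libraries were below vehicle ones in both lines, and the difference was -0.72 ± 0.16 (SE; adjusted p = 0.0043). GINS3, a subunit of the replicative helicase, differed by -0.82 ± 0.21 (SE; adjusted p = 0.00934). CCNE1, cyclin E1, differed by -0.87 ± 0.29 (SE; adjusted p = 0.0432) but lost its call in 10 of 12 fits that left out 1 library. The gene higher in TC32 was GINS4.

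The promoters of the G1/S genes are shown because members fell together and because the E2F factors, which drive this group in textbook accounts, have a well-known recognition sequence. Of the 30, 25 were found among RefSeq promoters on GRCh38.p14, and the 250 bases before each start were searched on both strands for TTTCCCGC, TTTCGCGC, TTTGCCGC and TTTGGCGC. On opposite strands, copies of a motif can overlap. Matches stood in 12 of the 34 promoters of these genes (11 genes), against 2.79% of all 35116 promoters. By call, 5 of the 9 genes lower in TC32 and 6 of the other 16 had one. The 100 bases before the start follow for the 5 genes called lower with a match (PCNA by its second listed start) and for GINS3, which had none, with matches in capitals (GCGGGAAA is TTTCCCGC read on the other strand).
POLA2 (chr11:65261862-65261961, plus strand): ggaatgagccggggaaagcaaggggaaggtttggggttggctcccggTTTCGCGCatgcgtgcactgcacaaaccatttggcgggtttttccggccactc
GINS2 (chr16:85688955-85689054, minus strand): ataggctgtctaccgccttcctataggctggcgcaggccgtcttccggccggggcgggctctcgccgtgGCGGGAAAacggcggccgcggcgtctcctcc
TYMS (chr18:657553-657652, plus strand): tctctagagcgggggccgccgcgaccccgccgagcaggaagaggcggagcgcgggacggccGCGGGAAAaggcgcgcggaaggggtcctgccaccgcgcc
PCNA (chr20:5126623-5126722, minus strand): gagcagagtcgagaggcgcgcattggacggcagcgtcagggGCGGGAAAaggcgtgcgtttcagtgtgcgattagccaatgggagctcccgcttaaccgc
CDT1 (chr16:88803689-88803788, plus strand): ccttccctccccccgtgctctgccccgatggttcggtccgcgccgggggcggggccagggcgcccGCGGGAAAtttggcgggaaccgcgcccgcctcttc
GINS3 (chr16:58392371-58392470, plus strand): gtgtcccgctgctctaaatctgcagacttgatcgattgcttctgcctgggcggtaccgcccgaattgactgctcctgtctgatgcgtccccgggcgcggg
In these promoters the match began 31 to 59 bases before the start. A match in the letters is a description of the window and says nothing on binding.

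Of 27 G2/M and mitosis genes, 19 fell and 1 rose in TC32 (median -0.46), and 5 fell and 0 rose in CHLA10 (median -0.09). For the difference, 8 were lower in TC32 and 0 higher (median -0.30), against 6.47% and 7.34% of all genes. Of the 8, 5 were also called in the trend-corrected fit. Leaving out treated TC32 replicate 3, vehicle TC32 replicate 1 or 3, treated CHLA10 replicate 1 or 2 or any vehicle CHLA10 replicate left 4 calls. PTTG1, the securin that holds back chromatid separation, had 87.1, 71.3 and 66.7 CPM in treated TC32 libraries and 168.1, 126.8 and 153.5 CPM in vehicle TC32 libraries. In CHLA10 the values were 88.5, 88.04 and 71.3 CPM under treatment and 72.7, 72.8 and 75.99 CPM under vehicle, and the groups overlapped. The difference was -1.16 ± 0.17 (SE; adjusted p = 9.67e-05). BIRC5, survivin, and UBE2C, a ubiquitin-conjugating enzyme of the anaphase-promoting complex, differed by -0.74 (adjusted p = 0.00128) and -0.74 (adjusted p = 0.00811). Of 25 homologous recombination and Fanconi genes, 1 (EXO1, -0.44) was called lower and 0 higher, against 6.47% and 7.34% of all genes. EXO1 lost its call in 9 of 12 fits that left out 1 library. The trend-corrected fit called EXO1 and 2 others lower and 0 higher, and without treated TC32 replicate 1 the count was 1 lower and 2 higher.

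Some p53 targets and death genes responded differently in the 2 lines. The cyclin-dependent kinase inhibitor p21, encoded by CDKN1A, had 67.6, 70.01 and 76.3 CPM in treated TC32 libraries and 123.7, 130 and 135.8 CPM in vehicle TC32 libraries. CHLA10 libraries had 22.9, 24.9 and 38.6 CPM with treatment and 8.68, 8.45 and 9.25 CPM with vehicle. Treated libraries were below vehicle ones in TC32 and above them in CHLA10. CDKN1A rose in CHLA10 by 1.71, while its TC32 change of -0.86 was not called (adjusted p = 0.0936), and the difference was -2.58 ± 0.61 (SE; adjusted p = 0.00816). BAX, a pore-forming death protein, had 100.8, 74.6 and 76.2 CPM in treated TC32 libraries and 183.3, 161.2 and 202.7 CPM in vehicle TC32 libraries. In CHLA10 its levels overlapped, at 70.5, 80.5 and 79.96 CPM treated and 79.3, 80.2 and 83.8 CPM vehicle, and the difference was -1.04 ± 0.15 (SE; adjusted p = 7.23e-05). BBC3, which encodes PUMA, differed by -1.56 ± 0.40 (SE; adjusted p = 0.0101), and BMF, another BH3-only protein, by -1.02 ± 0.24 (SE; adjusted p = 0.00586). The death receptor FAS went the other way, with 26.1, 40.2 and 36.5 CPM in treated TC32 and 54.7, 54.6 and 45.8 CPM in vehicle TC32. Its CHLA10 levels were 3.73, 4.46 and 9.45 CPM treated and 29.7, 25.7 and 23.3 CPM vehicle, and it fell there with a log2 change of -2.16. The TC32 change of -0.59 was not called (adjusted p = 0.0719), and the difference was 1.56 ± 0.39 (SE; adjusted p = 0.00956). Of 25 p53 targets, 6 were lower and 1 was higher in TC32 (median -0.27), against 6.47% and 7.34% of all genes. All 7 calls were also made in the trend-corrected fit. Of 15 BCL2 family genes tested, 4 were lower and 1 was higher (median -0.59), again all called in both fits; the higher count was 0 in 8 of 12 fits that left out 1 library.

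Of 12 D cyclins, CDK4/6 genes and CDK inhibitors, CDK6 and CDKN1A were the 2 called for the difference, both with a lower response in TC32 (against 6.47% of all genes). In the vehicle libraries CDKN1A stood at 124 to 136 CPM in TC32 and 8.45 to 9.25 CPM in CHLA10, so treated CHLA10 remained below treated TC32.

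Many genes of 2 metabolic lists fell in TC32, and few fell in CHLA10. Of 33 nuclear oxidative phosphorylation genes, 20 fell and 0 rose in TC32, and 2 fell and 1 rose in CHLA10. In the trend-corrected fit 16 fell and 0 rose in TC32, and 5 fell and 1 rose in CHLA10. For the difference 8 were lower and 0 higher (median -0.27), against 6.47% and 7.34% of all genes. Of the 8, 6 were also called in the trend-corrected fit, which called 1 higher and gave a median difference of -0.16. Among all tested genes in the bin of shortest transcripts, 11.3% were lower and 0.959% higher in the first fit, with a median of -0.29. The part of transcript length in the values of this list was not tested. Leaving out treated TC32 replicate 2 or 3 left 3 calls, whereas 14 were called without treated TC32 replicate 1. NDUFB10, a complex I subunit, had 106.6, 72.6 and 72.7 CPM in treated TC32 libraries and 180.3, 159.5 and 194.7 CPM in vehicle TC32 libraries. CHLA10 had 89.05, 81.1 and 83.1 CPM treated and 98.7, 99.96 and 94.2 CPM vehicle, and the difference was -0.88 ± 0.16 (SE; adjusted p = 0.000937). UQCRQ of complex III and ATP5PO of ATP synthase differed by -0.91 (adjusted p = 0.0105) and -1.03 (adjusted p = 0.0237). ATP5PO lost its call in 6 of 12 fits that left out 1 library. The share of counts on mitochondrial genes was 3.82 to 4.74% in treated TC32, 2.99 to 3.64% in vehicle TC32, 1.77 to 1.93% in treated CHLA10 and 1.63 to 1.88% in vehicle CHLA10; its part in these results was not tested.

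Of 22 cholesterol synthesis genes, 11 fell and 2 rose in TC32, and 2 fell and 2 rose in CHLA10. In the trend-corrected fit 9 fell and 1 rose in TC32, and 2 fell and 2 rose in CHLA10. For the difference 6 were lower and 0 higher (median -0.44), against 6.47% and 7.34% of all genes. Of the 6, 4 were also called in the trend-corrected fit. MVD, mevalonate diphosphate decarboxylase, had 100.2, 73.05 and 72.3 CPM in treated TC32 libraries and 177.5, 147.8 and 156.5 CPM in vehicle TC32 libraries. Its CHLA10 levels were 33.3, 44.6 and 38.8 CPM under treatment and 34.6, 34.1 and 34.01 CPM under vehicle, with a difference of -1.16 ± 0.28 (SE; adjusted p = 0.00759). ACAT2, which makes acetoacetyl-CoA, differed by -0.88 ± 0.25 (SE; adjusted p = 0.0198), and STARD4, a sterol carrier, by -0.96 ± 0.31 (SE; adjusted p = 0.0359). STARD4 lost its call in 9 of 12 fits that left out 1 library, with limma-voom and with a replicate block. Without treated TC32 replicate 2, 2 were called. Of 23 ATF4 stress genes, 2 were lower (DDIT3 and STC2) and 1 higher (SLC7A5), and each of the 3 lost its call in 9 to 11 of 12 fits that left out 1 library. After trend correction STC2 was called lower and 0 were higher.

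Antigen presentation genes called for the difference were all lower in TC32. Of 20 MHC class I and peptide loading genes, 16 fell and 0 rose in TC32 (median -0.92), and 6 fell and 3 rose in CHLA10 (median -0.29). For the difference 8 were lower and 0 higher (median -0.57), against 6.47% and 7.34% of all genes. Of the 8, 6 were also called in the trend-corrected fit. Leaving out treated TC32 replicate 2 or 3, vehicle TC32 replicate 1 or 3, treated CHLA10 replicate 1 or vehicle CHLA10 replicate 1 or 2 left 5 calls. ERAP2, an aminopeptidase that trims peptides, had 4.64, 4.03 and 4.37 CPM in treated TC32 libraries and 53.97, 45.5 and 56.9 CPM in vehicle TC32 libraries. For CHLA10 these were 1.15, 1.16 and 0.824 CPM treated and 3.28, 3.65 and 4.32 CPM vehicle. It was lower with treatment in both lines without overlap, and the difference was -1.74 ± 0.46 (SE; adjusted p = 0.0127). TAPBPL, a peptide editor, fell in TC32 (-0.77) and rose in CHLA10 (0.95), a difference of -1.72 ± 0.37 (SE; adjusted p = 0.00307). IRF1, a transcription factor of this pathway, differed by -1.09 (adjusted p = 0.0343) and lost its call in 8 of 12 fits that left out 1 library. Of 23 interferon-stimulated genes tested, 0 were called for the difference by edgeR, with 3 at an unadjusted p under 0.05 and 3 called by DESeq2 and 1 by limma-voom. The trend-corrected fit called 1 higher, and without treated CHLA10 replicate 3 the count was 3 higher.

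Collagen and elastic fibre genes called for the difference were all lower in TC32. Of 32 collagen chains tested, 14 fell and 0 rose in TC32 (median -1.11), and 10 fell and 2 rose in CHLA10 (median -0.57). For the difference 6 were lower and 0 higher (median -0.52), against 6.47% and 7.34% of all genes. All 6 were also called in the trend-corrected fit. COL3A1, a fibrillar collagen of soft tissue, had 3.21, 5.40 and 6.77 CPM in treated TC32 libraries and 87.7, 91.1 and 80.8 CPM in vehicle TC32 libraries. Its CHLA10 levels were 96.2, 100.3 and 68.8 CPM with BMS-986158 and 206.8, 213.2 and 213.8 CPM with vehicle. Neither pair overlapped, and the difference was -2.82 ± 0.49 (SE; adjusted p = 0.000757). COL6A1, a chain of microfibrillar collagen, had 28.6, 31.9 and 39.03 CPM in treated TC32 libraries and 147.4, 154.6 and 139.8 CPM in vehicle TC32 libraries. In CHLA10 there were 95.3, 94.7 and 87.2 CPM treated and 103.1, 100.8 and 104.5 CPM vehicle, with a difference of -1.997 ± 0.32 (SE; adjusted p = 0.000355). Its partner COL6A2 differed by -1.48 ± 0.30 (SE; adjusted p = 0.0023). Of 23 elastic fibre and lysyl oxidase genes, 14 fell in TC32 and 11 in CHLA10 with 0 rising in either. For the difference 4 were lower and 0 higher, all 4 in both fits. One of these, LTBP4 (-1.20), lost its call in 10 of 12 fits that left out 1 library. LTBP1, which holds latent TGF-beta in the matrix, differed by -1.75 ± 0.25 (SE; adjusted p = 6.77e-05), and FBLN5, an elastic fibre organiser, by -2.19 ± 0.47 (SE; adjusted p = 0.0027). Of 18 integrin subunits 1 was lower (ITGA11, -1.92, adjusted p = 0.0261, lost in 7 of 12 fits that left out 1 library but made in the trend-corrected fit). Of 11 laminin chains, 0 were called for the difference by edgeR, with 1 at an unadjusted p under 0.05 and 0 called by DESeq2 and 0 by limma-voom, and the trend-corrected fit called 0.

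The gene in the study's title question, PTK2, which encodes focal adhesion kinase, did not pass the test for a difference. It had 176.7, 200.3 and 200.7 CPM in treated TC32 libraries and 144.8, 176.4 and 155.1 CPM in vehicle TC32 libraries. In CHLA10 it had 176.1, 169.9 and 182.8 CPM under treatment and 158.5, 169.3 and 166.8 CPM under vehicle. Treated libraries were above vehicle ones in both lines without overlap, by 0.28 in TC32 (adjusted p = 0.0111) and 0.10 in CHLA10 (adjusted p = 0.444), and the difference was 0.18 ± 0.12 (SE; adjusted p = 0.352). In the trend-corrected fit the difference was 0.03 (adjusted p = 0.912). Of 25 focal adhesion kinase and linker genes, 4 were higher in TC32 (TNS1, TLN1, CRKL and LIMS1) and 0 lower, against 7.34% and 6.47% of all genes. TNS1 and CRKL were also called in the trend-corrected fit, which called 1 other gene lower. TNS1, tensin 1, which ties integrins to actin, had 61.9, 90.1 and 88.2 CPM in treated TC32 libraries and 63.01, 65.3 and 57.8 CPM in vehicle TC32 libraries. In the other line it had 10.1, 10.2 and 14.9 CPM treated and 39.98, 39.5 and 35.4 CPM vehicle, and its difference of 2.08 ± 0.29 (SE; adjusted p = 6.45e-05) came with a TC32 change of 0.37 that was not called and a fall in CHLA10 (-1.71). TLN1, talin 1, differed by 0.68 ± 0.15 (SE; adjusted p = 0.00318), and by an amount not called in the trend-corrected fit (0.32, adjusted p = 0.149). CRKL, an adaptor of the kinase's substrates, differed by 0.49 ± 0.12 (SE; adjusted p = 0.00861).

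Of 19 YAP and TEAD genes, WWTR1 and TEAD1 were higher in TC32 (against 7.34% of all genes) and 0 were lower. The higher count was 4 without treated TC32 replicate 1 and 1 without treated TC32 replicate 2 or 3, vehicle TC32 replicate 1 or 3 or vehicle CHLA10 replicate 1 or 2, the 6 fits in which TEAD1 lost its call. WWTR1, which encodes TAZ, had 47.5, 62.2 and 65.3 CPM in treated TC32 libraries and 33.3, 35.03 and 30.1 CPM in vehicle TC32 libraries, and CHLA10 had 17.4, 14.7 and 19.04 CPM treated and 20.2, 19.7 and 19.3 CPM vehicle. The difference for WWTR1 was 1.04 ± 0.17 (SE; adjusted p = 0.000321); that for TEAD1 (0.57, adjusted p = 0.0246) was not called in the trend-corrected fit, which called WWTR1 and 1 other higher. Of 15 smooth muscle contractile genes, 12 fell in TC32 and 8 in CHLA10 with 0 rising (median -2.24 in TC32 and -1.57 in CHLA10). CNN1, calponin, was lower in TC32 (-3.45, adjusted p = 0.0185) and ACTG2, an enteric actin, was higher there (1.998, adjusted p = 0.0339), ACTG2 losing its call in 11 of 12 fits that left out 1 library and CNN1 in 3. Both were called after trend correction.

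Growth factor genes showed calls in both directions. IGF1, the insulin-like growth factor, had 2.32, 2.55 and 2.56 CPM in treated TC32 libraries and 30.3, 30.8 and 28.3 CPM in vehicle TC32 libraries. CHLA10 showed 5.13, 4.54 and 6.504 CPM treated and 42.7, 44.9 and 36.3 CPM vehicle. It fell in both lines without overlap, with log2 changes of -3.59 in TC32 and -2.94 in CHLA10, and the difference of -0.65 ± 0.29 (SE; adjusted p = 0.137) was not called, though the trend-corrected fit called it (-0.95, adjusted p = 0.0345) and so did the fit of the 12 libraries alone. Of 20 genes of the IGF axis tested, 4 were lower in TC32 (IGFBP7, IGFBP5, STC2 and IGFBP2) and 2 higher (INSR and IGF2BP1). Of all genes, 6.47% were lower and 7.34% higher. All 6 IGF axis genes were called after trend correction too, with 1 more lower, IGF1. IGFBP7, a secreted IGF-binding protein, had 0.395, 0.245 and 0.0533 CPM in treated TC32 libraries and 16.02, 12.9 and 12.2 CPM in vehicle TC32 libraries. In CHLA10 it stayed low, at 0.675, 0.535 and 0.217 CPM treated and 0.469, 0.445 and 0.661 CPM vehicle, with a difference of -5.70 ± 1.11 (SE; adjusted p = 0.0015). IGFBP5 had 8.55, 8.30 and 9.71 CPM in treated TC32 libraries and 39.3, 54.6 and 47.5 CPM in vehicle TC32 libraries. Its CHLA10 levels were 633, 634.5 and 258.9 CPM treated and 372, 380 and 394.4 CPM vehicle, where replicate 3 lay below the vehicle libraries and the others above, and the difference was -2.83 ± 0.57 (SE; adjusted p = 0.00271). CXCL14, a secreted chemokine, fell to 0.741, 0.540 and 0.107 CPM in treated TC32, against 94.2, 90.6 and 105.1 CPM in vehicle TC32. In CHLA10 it held 1 count in the treated and 0 in the vehicle libraries, so no fold change is given there and the difference was not called (adjusted p = 0.237). KRT17, a keratin with pseudogene copies that make its counts uncertain, fell in both lines, with log2 changes of -6.55 in TC32 and -6.11 in CHLA10, and its difference was -0.44 ± 1.21 (SE; adjusted p = 0.867).

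Among 18 immediate early and AP-1 genes, 4 were higher in TC32 and 2 lower, against 7.34% and 6.47% of all genes, with a median difference of 0.43. NR4A1, an orphan nuclear receptor, rose in TC32 to 56.1, 52.2 and 51.6 CPM, against 33.1, 37.8 and 29.96 CPM with vehicle. In CHLA10 it fell to 6.36, 7.66 and 7.76 CPM with treatment, against 9.91, 11.9 and 9.86 CPM with vehicle, and the difference was 1.21 ± 0.22 (SE; adjusted p = 0.0007). EGR3 had 4.94, 6.28 and 4.69 CPM in treated TC32 libraries and 0.614, 1.78 and 1.47 CPM in vehicle TC32 libraries, and differed by 2.23 ± 0.63 (SE; adjusted p = 0.0181). EGR2 differed by 1.60 (adjusted p = 0.0283) and lost its call in 7 of 12 fits that left out 1 library. Without treated TC32 replicate 2, vehicle TC32 replicate 1 or treated CHLA10 replicate 1, 2 were called higher. KLF6 was also higher, and KLF4 and JUND were lower. The trend-corrected fit called the 4 higher genes and 1 lower.

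Among genes close to the drug's targets, HEXIM1, an inhibitor of P-TEFb and a common marker of BET inhibition, had 152.3, 148.6 and 148.1 CPM in treated TC32 libraries and 76.7, 77.5 and 73.8 CPM in vehicle TC32 libraries. The other line had 175.4, 169.2 and 198.5 CPM treated and 92.98, 85.5 and 82.9 CPM vehicle. It rose in both lines, by 0.98 in TC32 and 1.06 in CHLA10, and the difference was -0.08 ± 0.16 (SE; adjusted p = 0.81). Of 10 BET and P-TEFb genes, CCNT2, CCNT1 and BRD3 had a higher response in TC32 (against 7.34% of all genes) and 0 a lower one. CCNT2, a cyclin of P-TEFb, had 43.1, 58.4 and 63.6 CPM in treated TC32 libraries and 27.9, 35.6 and 31.6 CPM in vehicle TC32 libraries. In CHLA10 the values were 61.95, 56.6 and 64.4 CPM with BMS-986158 and 60.7, 59.5 and 62.2 CPM with vehicle, overlapping, and the difference was 0.79 ± 0.16 (SE; adjusted p = 0.00163). CCNT1 differed by 0.62 ± 0.14 (SE; adjusted p = 0.00467). BRD3 differed by 0.45 ± 0.12 (SE; adjusted p = 0.0154), and by an uncalled 0.25 (adjusted p = 0.119) in the trend-corrected fit.

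MYC, a classical BET-dependent oncogene, had 581.1, 655.4 and 637.9 CPM in treated TC32 libraries and 327.1, 381.4 and 392.2 CPM in vehicle TC32 libraries. CHLA10 libraries had 408.3, 406 and 378.5 CPM treated and 336.6, 340.9 and 359.6 CPM vehicle. Treated libraries were above vehicle ones in both lines. The rise in TC32 was 0.77 (adjusted p = 6.56e-07), the CHLA10 change of 0.20 was not called (adjusted p = 0.13), and the difference was 0.57 ± 0.14 (SE; adjusted p = 0.00811). Of 13 genes of the MYC, MAX and MXD network, MYC and MNT were higher in TC32 and MXD3 was lower (-0.97, adjusted p = 0.00317). MNT was not called in the trend-corrected fit (adjusted p = 0.0796) and lost its call in 7 of 12 fits that left out 1 library, which left MYC as the 1 higher. Of 23 ribosome biogenesis genes, 10 fell and 0 rose in each line. In the trend-corrected fit 6 fell and 1 rose in TC32, and 11 fell and 0 rose in CHLA10. For the difference, UTP20 (1.31) and WDR43 (0.57) were higher and FBL (-0.63) was lower. The trend-corrected fit called both higher genes and 2 others higher, and did not call FBL. Leaving out 1 library lost WDR43 in 5 of 12 fits and FBL in 3, and 3 genes were higher without treated TC32 replicate 1. Of 16 histone genes with polyadenylated transcripts, 8 rose and 2 fell in TC32, and 8 rose and 0 fell in CHLA10. H2AJ, H2AZ1 and H3-3A were lower in TC32 and 0 were higher, and the trend-corrected fit called 0 of the list, as did the fits without treated TC32 replicate 2 or 3.

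Of 23 genes that EWS::FLI1 activates, 12 fell and 0 rose in TC32 (median -0.66), and 15 fell and 1 rose in CHLA10 (median -1.0). For the difference 1 was higher and 1 lower, against 7.34% and 6.47% of all genes. The higher one was NKX2-2, a homeobox factor, at 85.2, 97.4 and 94.2 CPM in treated and 72.8, 84.7 and 95.5 CPM in vehicle TC32. Its CHLA10 levels were 0.0397, 0.178 and 0.650 CPM treated and 1.05, 1.28 and 1.27 CPM vehicle, so the difference of 2.20 ± 0.62 (SE; adjusted p = 0.0201) rests on 20 and 69 counts in CHLA10. NKX2-2 lost its call, and the higher count was 0, without treated CHLA10 replicate 1 or 2 or vehicle CHLA10 replicate 2. The lower one was VRK1, a chromatin kinase (-0.49, adjusted p = 0.0138), not called in the trend-corrected fit, which called NKX2-2 higher and 1 other gene lower, nor without treated TC32 replicate 3. Of 14 genes listed as repressed by the fusion, TNC was the 1 called, and the trend-corrected fit called TNC and 1 other lower.

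Of 26 cadherins and protocadherins tested, 3 were higher in TC32 and 3 lower, against 7.34% and 6.47% of all genes. Without treated TC32 replicate 2 each count was 1. The higher count was also 1 without vehicle TC32 replicate 1 or treated CHLA10 replicate 1, and 5 without treated TC32 replicate 1. The trend-corrected fit called 2 of the 3 higher genes and 0 others higher, and the 3 lower ones and 2 others lower. PCDH9 (1.58, adjusted p = 0.00437) and PCDH17 (1.78, adjusted p = 0.0203) were among the higher ones, and PCDH8 (-2.06, adjusted p = 0.014) among the lower ones. Of 32 WNT genes in the list, FZD6, LRP6 and FZD7 were higher (against 7.34% of all genes) and 0 lower, all 3 in both fits. RSPO3, called lower in TC32 in both fits (-2.96, and -2.89 after trend correction), was not among the 32. Leaving out 1 library gave 2 to 5 higher, 5 without treated TC32 replicate 1, and FZD7 lost its call in 7 of 12 such fits. Without treated CHLA10 replicate 3, 2 were lower. LRP6, a WNT co-receptor, had 40.8, 59.9 and 60.6 CPM in treated TC32 libraries and 23.4, 29.5 and 23.8 CPM in vehicle TC32 libraries. It had 91.4, 93.6 and 97.5 CPM in treated CHLA10 libraries and 92.04, 96.4 and 84.1 CPM in vehicle CHLA10 libraries, overlapping, and the difference was 1.02 ± 0.21 (SE; adjusted p = 0.00221). Of 16 Notch pathway genes NOTCH2 was higher (0.88, adjusted p = 0.0339), not called after trend correction and lost in 9 of 12 fits that left out 1 library; 3 were higher without treated TC32 replicate 1. Of 9 chemokine genes CXCR4 was lower (-3.21, adjusted p = 0.0489), a call lost in 11 of 12 fits that left out 1 library and in the trend-corrected fit.

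**Figure D5:**
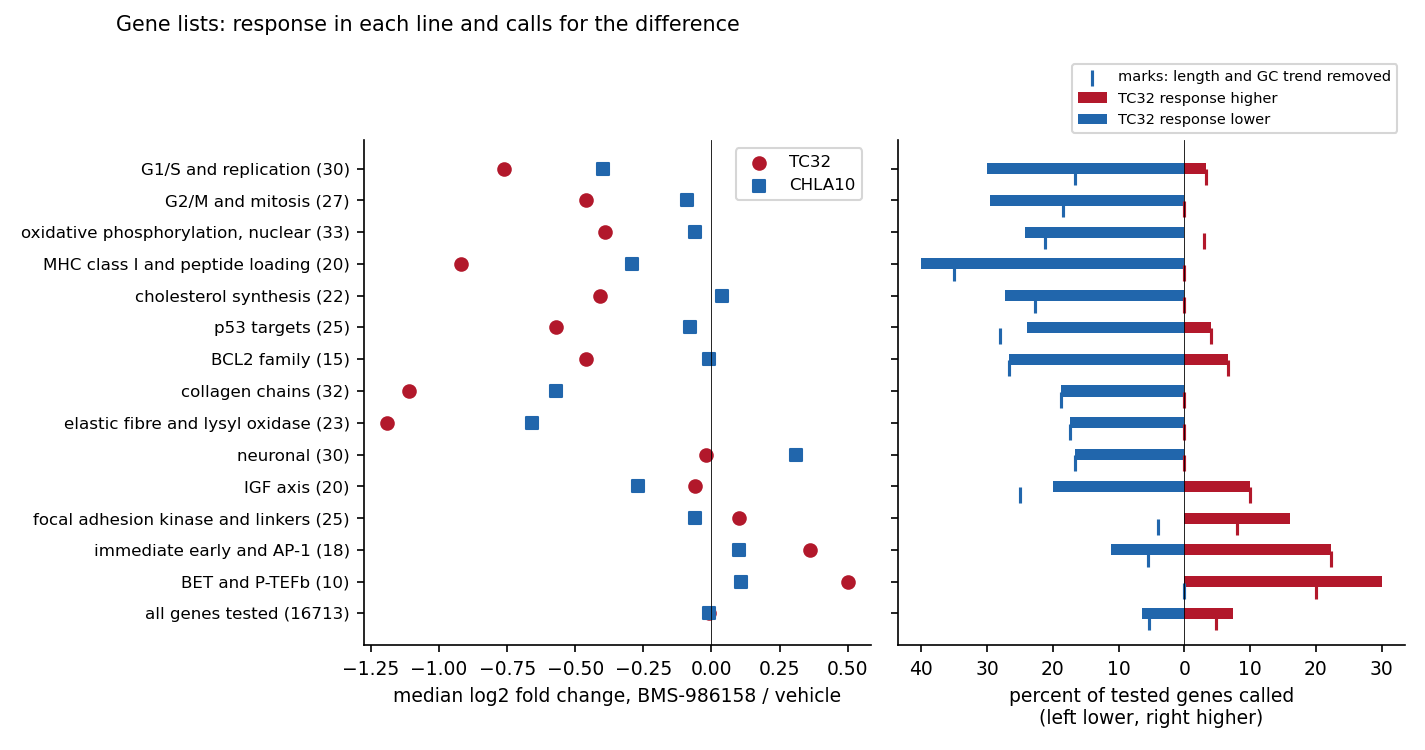
Left, median log2 fold change of each gene list (BMS-986158 over vehicle) in TC32 (circles) and CHLA10 (squares), with the number of genes tested in brackets. Right, percent of each list called for the difference, lower in TC32 to the left and higher to the right, with marks for the trend-corrected fit. The replication, oxidative phosphorylation, antigen presentation and cholesterol lists lie mostly to the left, where all genes stand at 6.47%, and the BET and P-TEFb list lies to the right, where all genes stand at 7.34%.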

How the data were processed

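The deposited table holds raw read counts per gene for 30 libraries, made by the authors from poly(A) RNA sequenced as 150-base read pairs on an Illumina NovaSeq instrument, per the labels' protocols. FastQC, Trim Galore, STAR and DESeq2 and the build GRCh38 (hg38) are named in the submitters' processing notes; for versions, counting tool, strand and annotation the sources used here give nothing. All 30 libraries were fitted together, with 1 mean per group, in edgeR 4.0.16 (R 4.3.3; filterByExpr, TMM scaling, robust quasi-likelihood test, Benjamini-Hochberg adjustment over 16713 genes, calls at adjusted p under 0.05). Levels are CPM on TMM-scaled totals, and SE is the log2 value divided by the square root of F. DESeq2 1.42.0 and limma 3.58.1 (voom) were alternatives. The script was tested on simulated data. Members and lists were chosen with earlier results of these data known.

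Named genes were a fixed set (PTK2, MYC, IGF1, HEXIM1, CXCL14, KRT17, NCAM1), the 12 highest and 12 lowest called differences with mean log2 CPM (prior count 2) of at least 2 and no overlap in at least 1 line, the 6 highest and 6 lowest with opposite calls, and up to 3 called members per list with mean log2 CPM of at least 0. The symbol rule for pseudogenes had left out the protein-coding TNFAIP6, STXBP6, FABP3, PKP1 and ARHGAP31, which were added after seeing the data, as were other genes named outside the rule to complete a small count. The fits that remove length and GC trends (a smooth curve per library used as an offset) and the fit without 2 treated libraries were also chosen after seeing the data. Some genes are not reported here. Intervals cover counting error only.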

Additional observations from a re-analysis of the deposited data

Results flagged for a closer look

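The response differed between the 2 lines by a direct test of the difference (edgeR, adjusted p under 0.05) for 100 of the named genes, and each is listed with its log2 difference, TC32 minus CHLA10; no explanation was weighed. Genes that fell in TC32 had -4.68 for TNFAIP6, -3.91 for STXBP6, -3.36 for FABP3, -3.19 for PKP1, -3.08 for FREM1, -3.02 for ASGR1, -2.96 for RSPO3, -2.91 for CAPN6, -2.83 for CITED4, -2.49 for CDK6, -2.73 for TNC, -2.29 for SCG2, -2.06 for PCDH8, -3.21 for CXCR4, -2.78 for STC2, -2.83 for IGFBP5, -5.70 for IGFBP7, -3.45 for CNN1, -1.92 for ITGA11 and -0.49 for VRK1. Matrix genes had -2.82 for COL3A1, -1.997 for COL6A1, -1.48 for COL6A2, -2.19 for FBLN5, -1.75 for LTBP1 and -1.20 for LTBP4. Genes that rose in CHLA10 had -3.19 for NCAM1, -3.55 for KIF5C, -3.23 for CADM1, -1.02 for BMF and -2.58 for CDKN1A. Genes with a positive value and a lower level in treated than vehicle CHLA10 had 2.19 for HR, 3.48 for CRYGS, 2.17 for ARHGAP31, 3.97 for UNCX, 2.08 for TNS1, 2.81 for ITPR3, 2.40 for BHLHE41, 2.15 for RBM20, 3.21 for NETO1, 2.04 for ETV5, 2.20 for NKX2-2, 1.56 for FAS, 1.998 for ACTG2, 1.17 for SLC7A5, 1.60 for EGR2, 1.31 for UTP20, 0.57 for WDR43 and 1.14 for FZD6. Genes called in opposite directions had -2.75 for APOE, -2.40 for TYW1B, -2.17 for BARX2, -2.58 for GAS7, -2.05 for MCF2L, -2.63 for DNM3OS, -1.72 for TAPBPL, -0.97 for MXD3, 1.57 for PGM2L1, 1.73 for ST3GAL1, 1.87 for NACC2, 1.87 for AHNAK, 1.89 for RAPH1 and 1.21 for NR4A1. Cell cycle and death genes had -0.72 for POLA2, -0.82 for GINS3, -0.87 for CCNE1, -1.16 for PTTG1, -0.74 for BIRC5, -0.74 for UBE2C, -0.44 for EXO1, -1.56 for BBC3 and -1.04 for BAX. Metabolic, histone, stress and antigen presentation genes had -1.03 for ATP5PO, -0.91 for UQCRQ, -0.88 for NDUFB10, -1.01 for H2AJ, -0.66 for H2AZ1, -0.36 for H3-3A, -1.20 for DDIT3, -1.16 for MVD, -0.96 for STARD4, -0.88 for ACAT2, -1.74 for ERAP2, -1.09 for IRF1 and -0.63 for FBL. Genes that rose in TC32 had 0.57 for MYC, 0.64 for MNT, 0.79 for CCNT2, 0.62 for CCNT1, 0.45 for BRD3, 0.68 for TLN1, 0.49 for CRKL, 1.04 for WWTR1, 0.57 for TEAD1, 2.23 for EGR3, 1.58 for PCDH9, 1.78 for PCDH17, 1.02 for LRP6, 0.56 for FZD7 and 0.88 for NOTCH2.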

How the results depend on the processing

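The count of 2307 genes with a different response moved by over 1.5 times in the fit of the 12 libraries alone (4267), at adjusted p under 0.01 (919) and at an absolute log2 change of at least 1 (780). Leaving out 1 library gave 1292 (without treated TC32 replicate 2) to 3146 (without treated TC32 replicate 1). The same fits gave 6266 to 7592 for the TC32 response (7545 in the report), 3686 to 5151 for the CHLA10 response (4975), 9410 to 10371 for the gap between lines under vehicle (10205) and 7754 to 8597 for the gap under treatment (8608). With an absolute log2 change of at least 1 these were 2681, 1863, 5489 and 4155, and CHLA10 had 3194 at adjusted p under 0.01. DESeq2 called 2897 differences, limma-voom 2226 and the fit without the 2 treated libraries that stood apart 3007. With each library's length and GC trend removed, 1707 differences were called, 1383 of them shared with the 2307, and 1617 with length alone. With group means removed, same-number treated and vehicle libraries correlated at 0.10, 0.07 and 0.03 in TC32 and 0.03, 0.00 and 0.01 in CHLA10. These low values cannot show whether the replicate numbers pair the samples, and the main fit used no pairing. A fit with a replicate block called 2826. No named gene called for the difference changed direction in any fit run. The causes of these moves were not tested, and depth limits genes of low level.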
